A study of Mus musculus with 51 samples.

Results

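The genes described are 10 Sox transcription factors expressed in the mouse gonad, the rows of the count table whose gene name is Sox9, Sox8, Sox10, Sox4, Sox11, Sox12, Sox5, Sox6, Sox13 or Sox30, and each name matched 1 of the 55401 genes in the table. Messenger RNA was counted in 30 libraries, 3 in each of 10 groups, all from mice of a mixed 129Sv and C57Bl/6J strain. At P28 (28 days after birth) whole gonads came from mice that were Dmrt1 +/+ (here wild-type), +/- or -/-, or carried R111G on 1 allele (R111G/+), and the P3 genotypes were Dmrt1 +/- and Dmrt1 -/-, together with R111G over a wild-type allele (R111G/+) or over a null allele (R111G/-). The gonads were XY. R111G, a point mutation in the DNA-binding DM domain of DMRT1, came from a single edited founder. At P7 the samples were Sertoli cells, isolated from tubules of pooled mice that carried the CAG-Stopflox-tdTomato reporter and Dhh-Cre, which recombines in the supporting cells that express Dhh. The deleted group was Dmrt1 f/f and the control group, whose sample names call it wild-type, had the genotype Dmrt1 f/+ with the same reporter and Cre. The comparisons ask how the Sox genes change when Dmrt1 is lost or mutated, and how they differ between ages.

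Sox proteins are relatives of the testis-determining factor SRY and share its HMG box, a domain that binds the minor groove of DNA and bends it. In the fetal XY gonad SRY switches on Sox9, and SOX9, helped by its close relative SOX8, makes supporting cells become Sertoli cells and represses the ovarian program. DMRT1, a DM domain transcription factor, keeps postnatal Sertoli cells from turning into granulosa-like cells and also acts in germ cells. The family is divided into lettered groups by sequence. The genes here are all 3 SoxE genes (Sox8, Sox9 and Sox10), all 3 SoxC genes (Sox4, Sox11 and Sox12), all 3 SoxD genes (Sox5, Sox6 and Sox13) and Sox30, the SoxH gene.

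Library totals ran from 5043838 to 12792811 counts with a median of 8776697. Levels are CPM (a gene's counts set to a common library total) scaled by trimmed mean of M values (TMM) over all 30 libraries, and n is 3 libraries a group throughout. No label says whether the 3 libraries came from separate animals, so p-values measure the spread between these samples. Dmrt1 itself stood at 37.0 to 47.7 CPM in P28 wild-type libraries and 0.171 to 0.463 in Dmrt1 -/- libraries, at 168 to 259 in P7 control and 21.2 to 36.8 in deleted Sertoli cells, and at 53.3 to 81.7 in P3 Dmrt1 +/- and 2.12 to 3.32 in Dmrt1 -/- gonads. Summed spermatid markers lay between 17794 and 21156 CPM in P28 wild-type gonads, 625 and 853 in Dmrt1 R111G/+ gonads and 29.1 and 34.9 in Dmrt1 -/- gonads. In the 3 Dmrt1 +/- libraries that sum ran from 4536 to 21146 CPM, and replicate 3 was the lowest. P28 gonads thus differed in cell makeup between genotypes, and in such bulk samples fewer cells of a type and less RNA per cell cannot be told apart.

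Each Sox gene had its own profile over age and genotype, and several of the 10 split into those highest in young gonads and those highest in P28 testes. Sox4, Sox8, Sox9, Sox11, Sox12 and Sox13 were higher in every P3 group than in P28 wild-type gonads by their means, whereas Sox5, Sox6 and Sox30 were highest in P28 wild-type gonads. Per kilobase of the longest annotated transcript, Sox4 had the highest level of the 10 genes in 8 of 10 groups, at 77.6 CPM per kb in P3 Dmrt1 +/- gonads and 108.8 in P7 control Sertoli cells. In P28 wild-type and Dmrt1 +/- gonads Sox30 stood first on that scale, at 78.3 and 48.6 CPM per kb.

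**Figure D1:**
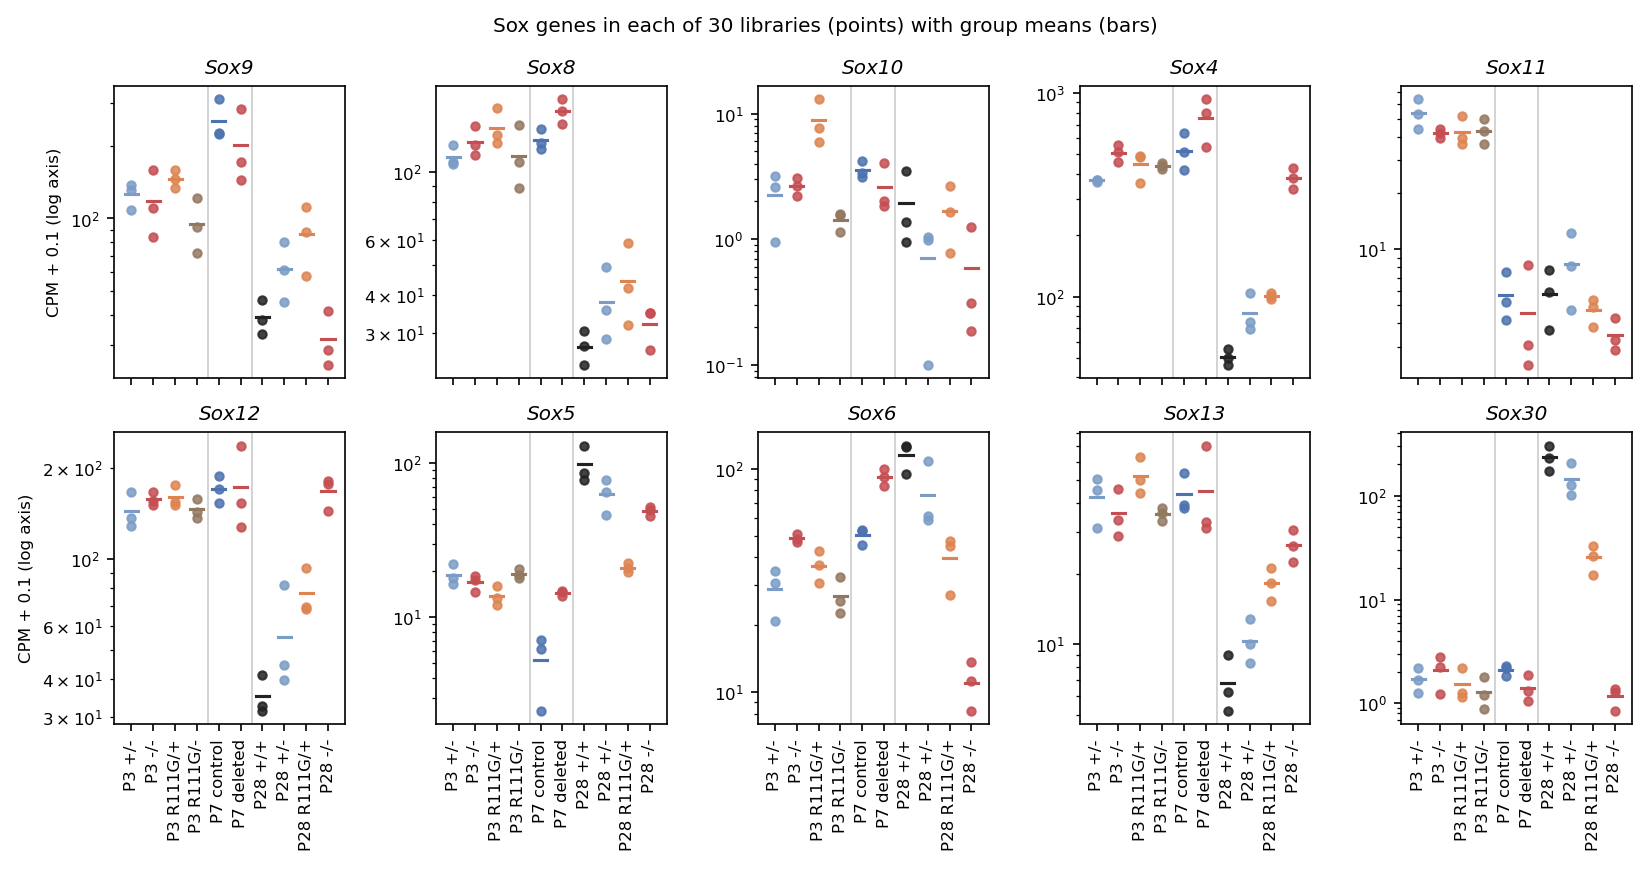
Level of each Sox gene in each library, as CPM plus 0.1 on a log axis, for the 4 P3 groups, the 2 P7 Sertoli cell groups and the 4 P28 groups; points are libraries and bars are group means. Sox30 lies between 102 and 304 CPM in P28 wild-type and Dmrt1 +/- gonads and under 3 CPM in the P3, P7 and P28 Dmrt1 -/- libraries, and Sox4 in P28 Dmrt1 -/- gonads (339 to 427 CPM) is near its P3 level.

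In P28 gonads without Dmrt1, Sox4, Sox12 and Sox13 were higher and Sox6 and Sox30 lower than in either control under TMM scaling. Under somatic scaling none of Sox4, Sox12 and Sox13 was more than 2-fold higher, and Sox13 was at -0.08 and -0.15. In R111G/+ gonads Sox5 and Sox30 were lower than in either control. Calls come from edgeR's quasi-likelihood test and needed both a change of more than 2-fold and a p below 0.05 after Benjamini-Hochberg adjustment across every gene tested. Against wild-type gonads, Dmrt1 -/- gonads had 3 genes called higher (Sox4, Sox12, Sox13) and 2 called lower (Sox6, Sox30), where 66.6% of all 20952 genes tested were called, 26.1% higher and 40.5% lower. Against Dmrt1 +/- gonads, 3 were called higher and 3 lower, where 58.5% of all genes were called, 19.8% higher and 38.7% lower. Dmrt1 R111G/+ gonads had 4 called higher (Sox9, Sox4, Sox12, Sox13) and 3 called lower (Sox5, Sox6, Sox30) against wild-type, with 52.2% of all genes called (18.1% higher, 34.1% lower), and 2 called lower (Sox5, Sox30) against Dmrt1 +/-, with 34.8% called (6.72% higher, 28.1% lower). Against Dmrt1 -/- gonads they had 3 called higher and 3 called lower, with 37.7% of all genes called, 27.6% higher and 10.1% lower. Most shares of the members thus lie near the background of a comparison in which much of the transcriptome differs, and the pattern of single genes carries the account. No gene of the 10 was called between Dmrt1 +/- and wild-type gonads, where 0% of all genes were called by edgeR, 6 of the 10 had an unadjusted p below 0.05 and DESeq2 called 0 of the 10. Groups without overlap were common at P28. Against wild-type they made up 83.8% of all genes for Dmrt1 -/-, 74.4% for R111G/+ and 25.4% for Dmrt1 +/-. Against Dmrt1 +/- they made up 77.9% for Dmrt1 -/- and 57.4% for R111G/+, and 61% between the mutants.

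**Figure D2:**
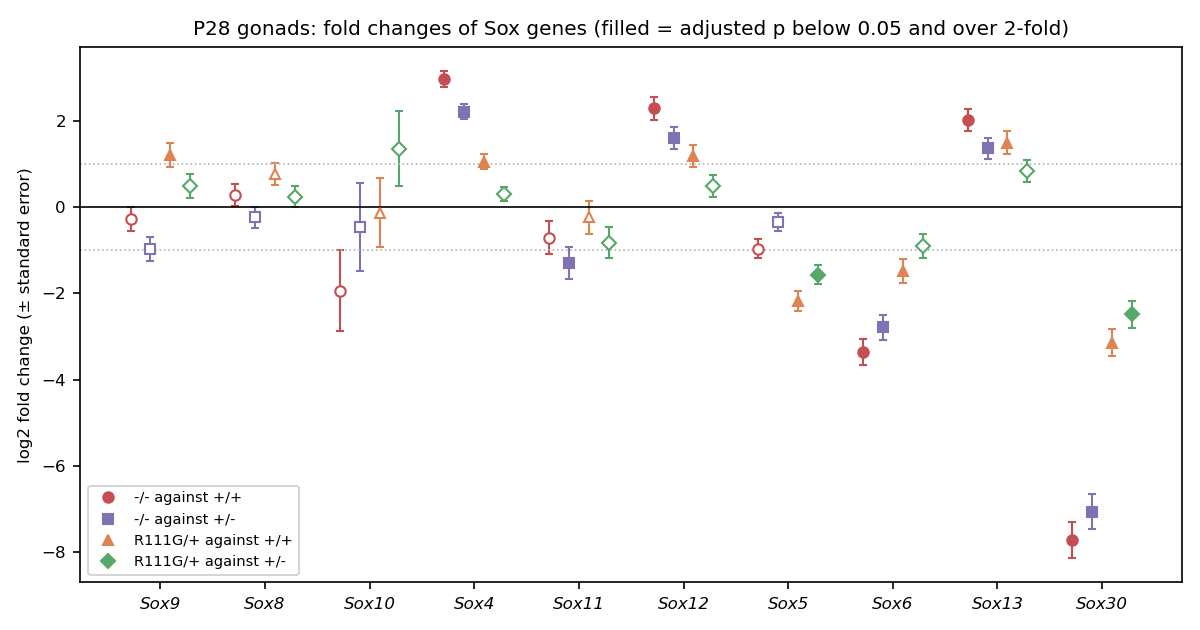
Log2 fold change with standard error (vertical axis) of the 10 Sox genes in 4 comparisons of P28 gonads, with TMM scaling; filled symbols were called and dotted lines mark 2-fold. Sox4, Sox12 and Sox13 lie above 0 and Sox6 and Sox30 below 0 in all 4, although under scaling by somatic markers Sox13 in Dmrt1 -/- gonads is at -0.08 against wild-type and -0.15 against Dmrt1 +/-, and in R111G/+ gonads Sox4 is at -0.13 against wild-type and Sox4 and Sox12 at -0.37 and -0.14 against Dmrt1 +/-.

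The scaling sets the sign of several of these changes. TMM takes the bulk of all genes as the reference, and the median log2 change of all genes tested was -0.31 for Dmrt1 -/- against wild-type gonads. When libraries were scaled instead by the median of ratios over 4 lists of markers of other somatic cells (macrophage, endothelial, peritubular myoid and stromal), that median was -2.36, a shift of -2.06, and when scaled by 8 genes of supporting cells (Wt1, Gata4, Gata6, Nr5a1, Emx2, Lhx9, Fshr, Amhr2) it was -2.18. A change of scaling adds about the same amount to the log2 change of every gene, so distances from the median are kept by construction. Sox4 stood 3.27, 3.28 and 3.27 log2 units above the median gene under TMM, somatic and supporting cell scaling. Sox9 stood 0.04, -0.02 and 0.01 from it. Such distances do not test whether a change holds. Which of these lists had the same RNA per cell in every genotype was not tested. Under TMM the median of all genes was -0.28 for Dmrt1 -/- against Dmrt1 +/-, -0.19 for R111G/+ against wild-type and -0.17 for R111G/+ against Dmrt1 +/-.

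**Figure D3:**
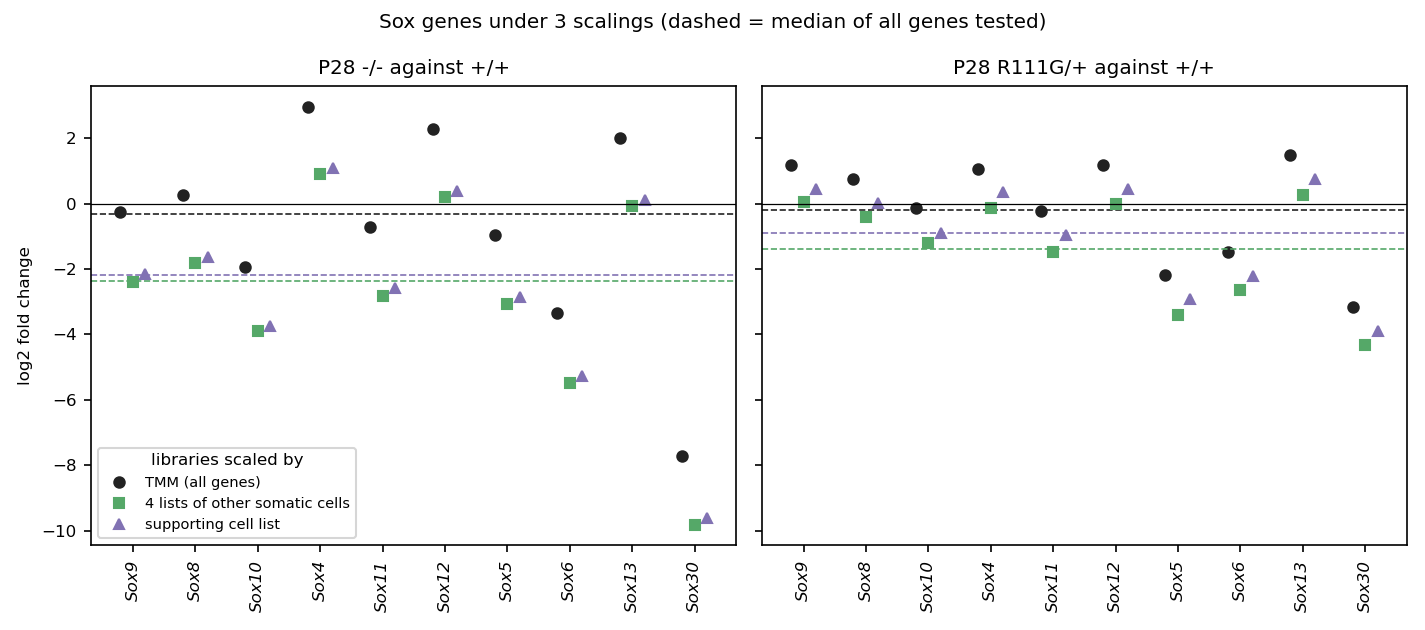
Log2 fold change (vertical axis) of the 10 Sox genes in P28 Dmrt1 -/- (left) and R111G/+ (right) gonads against wild-type when libraries were scaled by TMM, by markers of 4 other somatic cell types or by 8 supporting cell genes; dashed lines are the median of all genes tested under each scaling. In Dmrt1 -/- gonads the 2 marker-based scalings shift all 10 genes and the median down by about the same amount, and Sox8 goes from 0.28 to -1.82 and -1.62.

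The SoxE genes are the testis-determining arm of the family. Sox9 (chromosome 11, 112782224 to 112787760 of GRCm38, plus strand) encodes the factor that starts and holds Sertoli cell identity. In P28 gonads Sox9 stood at 33.1, 46.0 and 37.8 CPM in wild-type, 60.9, 45.2 and 79.9 in Dmrt1 +/-, 24.8, 41.6 and 28.5 in Dmrt1 -/- and 58.0, 87.5 and 112 in R111G/+ libraries. All R111G/+ libraries were above all wild-type and all Dmrt1 -/- libraries, but they overlapped the Dmrt1 +/- libraries. Sox9 was not called between R111G/+ and Dmrt1 +/- gonads, and that difference changed sign under somatic scaling. The paper likewise reports no differential expression of Sox9 between these genotypes. Dmrt1 -/- overlapped wild-type, and all Dmrt1 -/- libraries were below all Dmrt1 +/- libraries. R111G/+ gonads had 1.20 log2 units more Sox9 than wild-type (SE 0.277, adjusted p = 0.0018), a value of 0.05 under somatic and 0.45 under supporting cell scaling that was then no longer called, nor was it without R111G/+ replicate 3 (0.96). Against Dmrt1 -/- gonads the R111G/+ difference was 1.46 (SE 0.279, adjusted p = 6.9e-04), and it was called under every alternative run, with 2.43 and 2.62 under the marker-based scalings. Dmrt1 -/- against wild-type gonads gave -0.27 (SE 0.278, adjusted p = 0.39) under TMM, which was not past the test, and -2.38 and -2.17 under somatic and supporting cell scaling, which were. Against Dmrt1 +/- gonads the value was -0.98 (SE 0.277, adjusted p = 0.0058), just inside the 2-fold limit, and it was called under 9 of 14 alternatives, with -2.54 and -2.42 under those scalings and -1.21 to -0.72 with 1 library left out.

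Sox8 (chromosome 17, 25565892 to 25570686, minus strand), whose product shares targets with SOX9 and in mice helps keep adult Sertoli cells from reprogramming, had 23.6, 30.4 and 27.2 CPM in wild-type, 35.6, 28.6 and 49.2 in Dmrt1 +/-, 26.4, 34.9 and 34.8 in Dmrt1 -/- and 31.7, 41.8 and 58.6 in R111G/+ gonads at P28. Only R111G/+ and wild-type libraries did not overlap among these pairs, and their difference of 0.76 (SE 0.250, adjusted p = 0.015; -0.40 under somatic scaling) was under the 2-fold limit. Dmrt1 -/- against wild-type was 0.28 (SE 0.251, adjusted p = 0.32) under TMM and turned to -1.82 under somatic and -1.62 under supporting cell scaling.

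The ratio of Sox9 to Sox8 counts within a library does not depend on scaling, and it was looked at after the levels had been seen. At P28 it was 1.40, 1.51 and 1.39 in wild-type, 1.71, 1.58 and 1.62 in Dmrt1 +/-, 0.94, 1.19 and 0.82 in Dmrt1 -/- and 1.83, 2.09 and 1.91 in R111G/+ libraries. None of the 4 groups overlapped another, with Dmrt1 -/- lowest and R111G/+ highest. The log2 ratio differed from wild-type by -0.56 (SE 0.163) in Dmrt1 -/- gonads, by 0.19 (SE 0.0512) in Dmrt1 +/- gonads and by 0.44 (SE 0.0690) in R111G/+ gonads. Each of these has the smallest p that 3 libraries against 3 allow in a two-sided exact permutation test, 0.1, or 0.17 adjusted over the 39 ratio comparisons made. At P7 the ratio was 1.64, 2.62 and 1.80 in control and 0.92, 1.21 and 1.66 in deleted Sertoli cells, which overlapped. At P3 it lay between 0.74 and 1.31 in all 12 libraries.

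**Figure D4:**
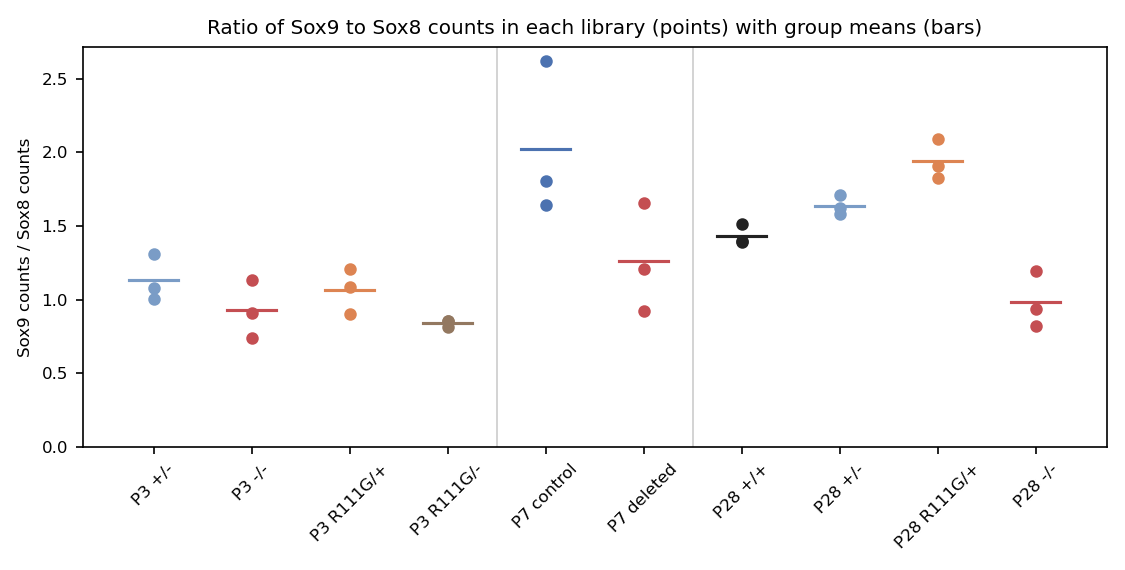
Ratio of Sox9 to Sox8 counts (vertical axis, from 0) in each library (points) of the 10 groups, with group means (bars). The 4 P28 groups do not overlap, from means of 0.98 in Dmrt1 -/- and 1.43 in wild-type to 1.64 in Dmrt1 +/- and 1.94 in R111G/+ gonads, while the P3 libraries lie between 0.74 and 1.31.

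In isolated P7 Sertoli cells the means of Sox9 were the highest of the 10 groups, while the Sox8 mean was 126 CPM in control and 157 in deleted cells beside 111.4 to 138 in the P3 groups. Sox9 had 225, 311 and 223 CPM in control and 145, 172 and 284 in deleted cells, and Sox8 had 137, 118 and 124 in control and 157, 142 and 171 in deleted cells. The Sox9 ranges overlapped and the Sox8 ranges did not, and neither difference passed edgeR's test (Sox9 -0.33, SE 0.273, adjusted p = 0.52; Sox8 0.31 and under somatic scaling -0.60, SE 0.144, adjusted p = 0.26 with TMM, with 0 of the 10 Sox genes called where 4.56% of 14013 genes were). Of the 10 genes 2 had an unadjusted p below 0.05 there, and DESeq2 called 1, Sox5. Over all genes tested at P7, 27.9% did not overlap between the groups. At P3 Sox9 ran from 72.1 to 159 CPM and Sox8 from 88.5 to 161 CPM over the 4 genotypes with no call. In the order of group means of Sox9, from P7 control (253 ± 50.1 CPM, SD) down to P28 Dmrt1 -/- (31.6 ± 8.82), each group overlapped its neighbour. For Sox8 the neighbours also overlapped, except that every P3 and P7 group was clear of the P28 groups.

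Genes that work with or under SOX9 in Sertoli cells moved in both directions. Of 18 such genes 16 were tested at P28, and in Dmrt1 -/- against wild-type gonads 6 were called higher and 4 lower, a share near the 66.6% of all genes called there, with a median of 0.58 where the median of all genes was -0.31. Gata4 and Nr5a1, transcription factors that act with SOX9 on Amh, were 3.55 and 2.81 log2 units higher, and Vnn1, a pantetheinase expressed by Sertoli cells, was 3.14 higher. Dmrt1, itself on the list and the gene that these mice lack, was 1 of the 4 and fell by 6.86. In R111G/+ against wild-type gonads 8 were called higher and 1 lower (median 1.06) beside 18.1% and 34.1% of all genes, including Gata4 at 1.51, Fgfr2, the receptor for the FGF9 that sustains Sox9, at 1.79, and Cyp26b1, the retinoic acid-degrading enzyme of Sertoli cells, at 1.55, while Col9a3, a collagen chain, was at -2.08. Sertoli cell markers summed to 1695 to 1808 CPM in wild-type, 3304 to 3927 in R111G/+ and 5834 to 6292 in Dmrt1 -/- gonads, whereas this list summed to 781 to 935 CPM in wild-type, 1805 to 2207 in R111G/+ and 1743 to 2161 in Dmrt1 -/- gonads. The list of Sertoli cell markers shares Hsd17b1, Fshr and Inha with that of granulosa cells and also holds Wt1 and Gata4. Granulosa cell markers summed to 411 to 536 CPM in wild-type, 834 to 1264 in R111G/+ and 5190 to 5444 in Dmrt1 -/- gonads. Somatic scaling shifts the median of all genes by -1.20 in R111G/+ and by -2.06 in Dmrt1 -/- against wild-type gonads. Each shift is larger in size than the median of the SOX9 list there. The part of cell makeup in these values was not tested.

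Most ovarian regulators that oppose SOX9 were higher in P28 gonads without Dmrt1. Of 11, all tested, 9 were called higher and 1 lower in Dmrt1 -/- against wild-type gonads (median 3.30), beside 26.1% of all genes higher and 40.5% lower, and the counts against Dmrt1 +/- were 9 and 1 (median 2.34) beside 19.8% and 38.7%. Foxl2, which represses Sox9 in granulosa cells, was 8.56 higher, Nr5a2 6.91, Wnt4, an ovary-determining ligand, 7.28 and Bmp2 5.56, all past the shift of -2.06 that somatic scaling brings. R111G/+ against wild-type gave 6 higher and 1 lower (median 1.39) beside 18.1% and 34.1% of all genes. Among the 6 were the estrogen receptor genes Esr2 at 3.68 and Esr1 at 1.85, and Lef1, a Wnt effector, was at -2.02. Foxl2 had only 1, 5 and 5 counts in R111G/+ and 6, 2 and 2 in wild-type libraries. Somatic scaling shifts the median of all genes by -1.20 in this comparison, close in size to the median of the list. In P7 Sertoli cells, where 4.56% of all genes were called, 2 of 9 tested were called higher, Foxl2 at 6.28 and Wnt4 at 3.69, with the list's median at -0.13, and of 17 SOX9 partners tested 1 was called higher (Fgfr2, 2.00) and 3 lower (Dmrt1, -2.87; Aard, -1.70; Nr0b1, -1.53), in the same libraries in which the Sox9 change of -0.33 was not past the test.

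Sox10 (chromosome 15, 79154908 to 79165240, minus strand), which drives neural crest and Schwann cell fate and can start testis formation when forced on in XX mice, was the rarest SoxE gene and set R111G/+ gonads apart at P3. It had 12.9, 5.85 and 7.54 CPM there, against 0.850, 3.11 and 2.50 in Dmrt1 +/-, 2.11, 2.99 and 2.57 in Dmrt1 -/- and 1.48, 1.47 and 1.03 in R111G/- gonads. The 3 R111G/+ libraries were above all 9 other P3 libraries. Over all genes, R111G/+ did not overlap Dmrt1 +/- for 9.43%, Dmrt1 -/- for 23.1% and R111G/- for 15.3%, in either direction. These values rest on 55 to 123 counts per R111G/+ library and 7 to 24 in the others. The log2 difference was 2.68 from R111G/- (SE 0.427, adjusted p = 0.0092), where 0.461% of all 15837 genes were called, and 1.76 from Dmrt1 -/- (SE 0.395, adjusted p = 0.029), where 1.89% were called, and Sox10 was the 1 Sox gene called in both. Against Dmrt1 +/- it was 2.01 (SE 0.406, adjusted p = 0.065) and not called, where 0.133% of all genes were called, 3 of the 10 Sox genes had an unadjusted p below 0.05, and DESeq2 called Sox10. The call against Dmrt1 -/- was lost when Dmrt1 -/- replicate 1, 2 or 3 or R111G/+ replicate 1 or 3 was left out (values 1.37 to 1.98 over all 6 libraries left out in turn), under somatic scaling (1.48) and with the replicate number as a block (adjusted p = 0.069), and the call against R111G/- was lost without R111G/- replicate 1 (adjusted p = 0.053) or 3 (adjusted p = 0.066).

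The summed level of other Schwann cell and glial markers was not higher in R111G/+ gonads than in the other P3 groups. Their summed level was 340 to 410 CPM in R111G/+, 327 to 452 in Dmrt1 +/-, 362 to 434 in Dmrt1 -/- and 410 to 482 in R111G/- gonads. The crest factor Foxd3 was at 0 counts in every library. Between R111G/+ and Dmrt1 +/- gonads 0 of 6 tested were called, where 0.133% of all genes were. The same list summed to 167 to 263 CPM in isolated P7 control Sertoli cells, so the sum does not follow glia alone. A small change in Schwann cells might not show in it. Summed markers of undifferentiated spermatogonia were 137 to 310 CPM in R111G/+, 115 to 255 in Dmrt1 +/-, 70.0 to 116 in Dmrt1 -/- and 82.0 to 91.2 in R111G/- gonads. Of 8 tested, 3 were called higher in R111G/+ than in Dmrt1 -/-, beside 0.903% of all genes. Against R111G/- gonads 2 of 8 were called higher, beside 0.354% of all genes. The spermatogonial sums of R111G/+ and Dmrt1 +/- gonads overlapped, whereas their Sox10 levels did not. Calls are given for different comparisons in the glial and the spermatogonial lists, so they do not rank these lists against each other. The part of glia or spermatogonia in the Sox10 difference was not tested. At P28 Sox10 had 0 to 33 counts per library and no comparison of genotypes was called.

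**Figure D5:**
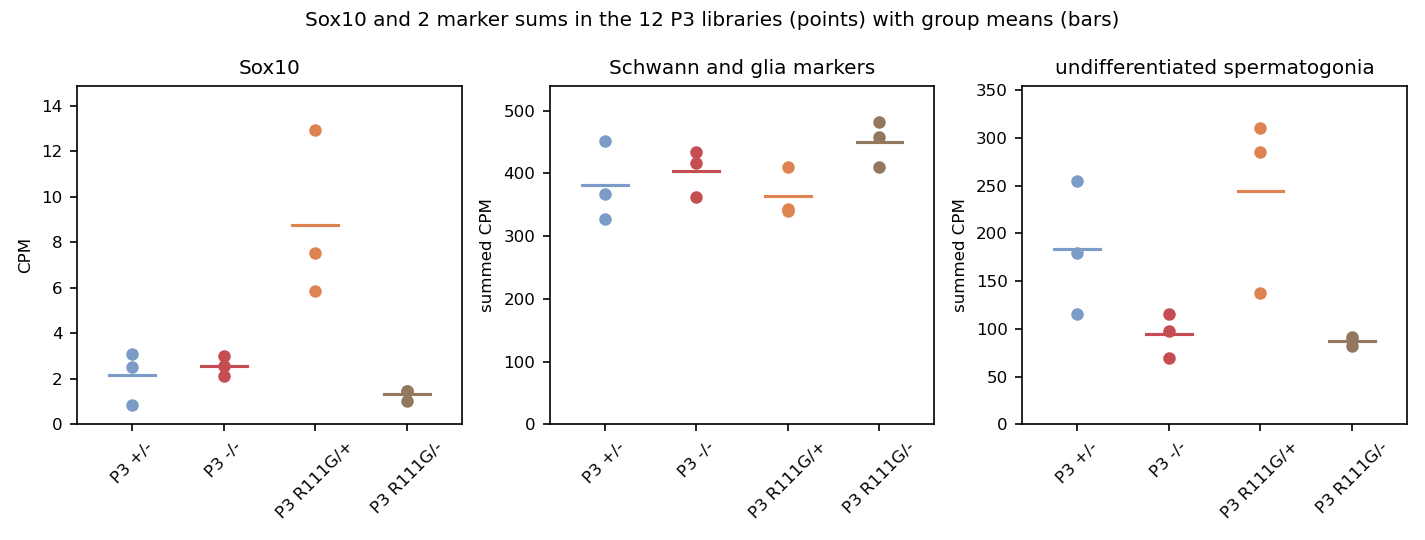
Sox10 level (CPM, left), summed Schwann cell and glial markers (CPM, middle) and summed markers of undifferentiated spermatogonia (CPM, right) in the 12 P3 libraries (points) by genotype, with group means (bars) and axes from 0. Sox10 is at 5.85 to 12.9 CPM in the R111G/+ libraries and at most 3.11 elsewhere, while the glial sum is 340 to 410 CPM in R111G/+ against 327 to 482 in the other groups.

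The SoxC genes encode activators found in progenitors and in fetal gonads, and in mice Sox4 is needed for the normal shape of the fetal gonad. Sox4 (chromosome 13, 28948919 to 28953713, minus strand) had 54.9, 49.6 and 46.1 CPM in wild-type, 74.5, 69.2 and 103 in Dmrt1 +/-, 100, 104 and 96.7 in R111G/+ and 382, 427 and 339 in Dmrt1 -/- gonads at P28. The Dmrt1 -/- libraries were above all others, and the level there overlapped that of P3 Dmrt1 +/- gonads (368, 374 and 374 CPM). The difference from wild-type was 2.96 (SE 0.184, adjusted p = 1.4e-08) and from Dmrt1 +/- 2.21 (SE 0.178, adjusted p = 1.4e-07), and under somatic scaling it was 0.91 and 0.68 and under supporting cell scaling 1.09 and 0.79, of which 1.09 alone was called. R111G/+ gonads were 1.05 above wild-type (SE 0.174, adjusted p = 1.6e-04), but -0.13 under somatic scaling, and the call was also lost under supporting cell scaling (0.34), with DESeq2 (0.96) or its size factors (0.94) and without wild-type replicate 3 (0.98). R111G/+ gonads were 1.91 below Dmrt1 -/- gonads, with a log2 difference of -1.91 (SE 0.176, adjusted p = 1.6e-06). Set against Sox9 within a library, the ratio of Sox4 to Sox9 counts was 15.4, 10.3 and 11.9 in Dmrt1 -/- and between 0.864 and 1.73 in the other 9 P28 libraries, a scaling-free gap that these libraries did not bridge (log2 difference from wild-type 3.25, SE 0.252, exact permutation p = 0.1, the smallest possible).

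Sox12 (chromosome 2, 152393611 to 152398063, minus strand), a weaker activator than its relatives, kept close to Sox4. It had 31.2, 41.3 and 32.4 CPM in wild-type, 44.3, 39.5 and 81.9 in Dmrt1 +/-, 68.2, 69.4 and 92.8 in R111G/+ and 144, 181 and 177 in Dmrt1 -/- gonads. Every Dmrt1 -/- library was above every other P28 library, and R111G/+ was clear of wild-type but not of Dmrt1 +/-. Dmrt1 -/- was 2.29 above wild-type (SE 0.264, adjusted p = 3.1e-06) and 1.59 above Dmrt1 +/- (adjusted p = 8.0e-05), and R111G/+ was 1.19 above wild-type (SE 0.257, adjusted p = 0.0011), with 0.20, 0.06 and 0.00 under somatic scaling, none of them called.

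Sox11 (chromosome 12, 27334264 to 27342574, minus strand), a driver of neural and other progenitors, differed most with age among the SoxC genes in each genotype. It had 36.8 to 63.8 CPM in the 12 P3 libraries, 2.30 to 8.16 in P7 Sertoli cells and 2.76 to 12.1 in P28 gonads, with no overlap of P3 with the rest. From P3 to P28 the log2 change was -2.69 in Dmrt1 +/-, -3.64 in Dmrt1 -/- and -3.20 in R111G/+ gonads, and these were called under every scaling. At P28 Dmrt1 -/- gonads (4.17, 2.76 and 3.16 CPM) lay below Dmrt1 +/- gonads (8.04, 4.60 and 12.1 CPM) with a difference of -1.30 (SE 0.379, adjusted p = 0.0068), which without Dmrt1 +/- replicate 3, the library low in spermatid markers, was -0.88 and not called.

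The SoxD genes encode proteins with a coiled coil and no activation domain of their own, which in cartilage work beside SOX9, and in mouse testis Sox5 and Sox6 are also transcribed in germ cells. Sox6 (chromosome 7, 115470872 to 116038796, minus strand) had 94.3, 125 and 127 CPM in wild-type, 108, 61.4 and 58.6 in Dmrt1 +/-, 27.1, 45.0 and 47.3 in R111G/+ and 8.11, 11.1 and 13.5 in Dmrt1 -/- gonads. Dmrt1 -/- libraries were the lowest of the P28 libraries, R111G/+ came next, and neither overlapped a control. The difference of Dmrt1 -/- from wild-type was -3.36 (SE 0.302, adjusted p = 3.0e-07) and from Dmrt1 +/- -2.79 (SE 0.296, adjusted p = 1.9e-06), and that of R111G/+ from wild-type was -1.47 (SE 0.276, adjusted p = 4.0e-04), all called under every alternative run. R111G/+ against Dmrt1 +/- was -0.91 (SE 0.273, adjusted p = 0.014), inside the 2-fold limit.

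At P7 and P3, where spermatocyte markers summed to at most 66.0 CPM, Sox6 in samples without Dmrt1 stood above its controls. In P7 deleted Sertoli cells it had 91.3, 83.7 and 99.3 CPM against 52.4, 53.1 and 45.5 in controls, and in P3 Dmrt1 -/- gonads 50.6, 48.4 and 47.0 against 30.6, 20.7 and 34.7 in Dmrt1 +/-. Neither pair of groups overlapped, as for 27.9% of all genes tested at P7 and 13.2% in this P3 comparison. The P7 difference of 0.86 (SE 0.148, adjusted p = 0.014) was under 2-fold, with 0.00 under somatic and 0.60 under supporting cell scaling, and the P3 difference of 0.77 (SE 0.188, adjusted p = 0.097) was not past the test, in a comparison where 0 of the 10 were called, 3 had an unadjusted p below 0.05, DESeq2 called 0 and 0.511% of all genes were called. R111G/- gonads at P3 (25.4, 32.5 and 22.4 CPM) were below Dmrt1 -/- gonads without overlap, as 11.9% of all genes were apart either way. The difference was -0.85 (SE 0.188, adjusted p = 0.11), and without R111G/- replicate 2 it was -1.03 and called (adjusted p = 0.041).

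Sox5 (chromosome 6, 143828425 to 144781977, minus strand) had 77.6, 130 and 86.2 CPM in wild-type, 77.2, 65.1 and 45.7 in Dmrt1 +/-, 49.2, 45.3 and 52.1 in Dmrt1 -/- and 19.5, 20.8 and 22.2 in R111G/+ gonads. The R111G/+ libraries were the lowest, below those of Dmrt1 -/- gonads, the reverse of the order of Sox6 in the same libraries. R111G/+ was at -2.18 from wild-type (SE 0.222, adjusted p = 7.2e-06) and -1.56 from Dmrt1 +/- (SE 0.218, adjusted p = 1.1e-04), both called under every alternative run. Its difference from Dmrt1 -/- was -1.21 (SE 0.217, adjusted p = 4.4e-04) under TMM, -0.34 under somatic and -0.06 under supporting cell scaling, and it was also no longer called without Dmrt1 -/- replicate 3 or R111G/+ replicate 1 (both -0.94). The ratio of Sox6 to Sox5 counts, which scaling does not touch, was 0.165, 0.244 and 0.259 in Dmrt1 -/-, 1.39, 2.17 and 2.13 in R111G/+ and between 0.943 and 1.47 in wild-type and Dmrt1 +/- libraries. Dmrt1 -/- lay below all other P28 libraries, with the log2 ratio 3.09 lower than in R111G/+ (SE 0.292, exact permutation p = 0.1, the smallest possible), while R111G/+ overlapped both controls (exact permutation p = 0.2 for each).

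In P7 Sertoli cells Sox5 was rare in controls (6.99, 6.07 and 2.35 CPM) and higher in every deleted library (14.8, 14.4 and 13.6 CPM). The groups did not overlap, as for 27.9% of all genes tested. The difference of 1.47 (SE 0.385, adjusted p = 0.063 by edgeR) was not called, whereas DESeq2 and the unfiltered fit called it. Summed endothelial markers were 13.9 to 17.0 CPM in control and 31.1 to 54.2 in deleted cells and stromal markers 31.7 to 239 and 124 to 442, and their part in the Sox5 values was not tested. At P3 Sox5 had 11.9 to 21.9 CPM over the 12 libraries, with R111G/+ (11.9, 15.7 and 13.1) below Dmrt1 +/- (21.9, 16.3 and 17.8) at -0.47 (SE 0.160, adjusted p = 0.55).

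Sox13 (chromosome 1, 133382303 to 133424377, minus strand), known from T cells and Wnt signaling, had 5.07, 8.91 and 6.11 CPM in wild-type, 8.23, 9.87 and 12.6 in Dmrt1 +/-, 18.2, 15.2 and 20.97 in R111G/+ and 22.3, 26.1 and 30.5 in Dmrt1 -/- gonads. Each mutant group was above both controls and the mutant groups did not overlap each other. Dmrt1 -/- differed from wild-type by 2.02 (SE 0.261, adjusted p = 8.9e-06) and from Dmrt1 +/- by 1.36 (adjusted p = 2.4e-04), but by -0.08 and -0.15 under somatic scaling, and R111G/+ from wild-type by 1.49 (SE 0.259, adjusted p = 2.3e-04) and 0.27 under somatic scaling.

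Sox30 (chromosome 11, 45980310 to 46017994, plus strand) encodes a factor that mouse germ cells need to pass from meiosis to round spermatids and to elongate. It had 172, 304 and 228 CPM in wild-type, 208, 126 and 102 in Dmrt1 +/-, 17.1, 26.2 and 32.9 in R111G/+ and 1.27, 0.744 and 1.20 in Dmrt1 -/- gonads. The 3 levels of wild-type with Dmrt1 +/-, R111G/+ and Dmrt1 -/- were separated without overlap. Dmrt1 -/- was at -7.72 from wild-type (SE 0.421, adjusted p = 6.7e-09), R111G/+ at -3.15 (SE 0.313, adjusted p = 6.5e-06) and R111G/+ at 4.57 from Dmrt1 -/- (SE 0.399, adjusted p = 1.0e-06), all called under every alternative run. Spermatocyte markers summed to 3171 to 3289 CPM in wild-type, 1619 to 3016 in Dmrt1 +/-, 642 to 843 in R111G/+ and 7.18 to 8.61 in Dmrt1 -/- gonads, in the same order as Sox30. The level in Dmrt1 -/- gonads, 7 to 14 counts a library, was close to the 0.775 to 2.701 CPM of P3 gonads and the 0.948 to 2.21 CPM of P7 Sertoli cells.

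Sequences just upstream of 4 of these genes are shown because Sox4 and Sox12 stood together in Dmrt1 -/- gonads while Sox30 and Sox6 were at the other end. RefSeq upstream windows of 250 bases (GRCm38) were matched for 8 of the 10 genes in 13 windows. Capitals mark CCAAT boxes (CCAAT, or ATTGG on the other strand), chosen after the sequences were seen, and in Sox6 also the 7-letter core ACANTGT of DMRT binding sites. Both strands were searched.
Sox4, chr13:28953700-28953949, minus strand: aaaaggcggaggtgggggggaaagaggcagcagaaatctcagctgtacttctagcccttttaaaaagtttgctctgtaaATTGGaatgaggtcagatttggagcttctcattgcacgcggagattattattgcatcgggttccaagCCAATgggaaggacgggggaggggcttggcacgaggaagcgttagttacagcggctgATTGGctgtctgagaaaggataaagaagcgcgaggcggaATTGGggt
Sox12, chr2:152398047-152398296, minus strand: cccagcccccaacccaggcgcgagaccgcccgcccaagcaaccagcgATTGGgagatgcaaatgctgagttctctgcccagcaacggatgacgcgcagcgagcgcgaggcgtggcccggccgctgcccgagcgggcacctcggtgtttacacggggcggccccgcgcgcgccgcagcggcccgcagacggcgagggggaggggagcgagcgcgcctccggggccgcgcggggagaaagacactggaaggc
Sox30, chr11:45980060-45980309, plus strand: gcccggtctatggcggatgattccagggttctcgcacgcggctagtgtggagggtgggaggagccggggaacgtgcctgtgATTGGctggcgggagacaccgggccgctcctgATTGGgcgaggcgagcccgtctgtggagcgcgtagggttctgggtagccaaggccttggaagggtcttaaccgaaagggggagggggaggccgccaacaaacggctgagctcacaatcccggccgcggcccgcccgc
Sox6, chr7:115801610-115801859, minus strand, an internal start: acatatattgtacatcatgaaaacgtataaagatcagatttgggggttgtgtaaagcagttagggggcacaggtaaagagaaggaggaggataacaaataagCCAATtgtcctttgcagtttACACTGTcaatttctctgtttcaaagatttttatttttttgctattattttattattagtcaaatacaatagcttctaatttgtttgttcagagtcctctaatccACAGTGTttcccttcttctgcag
The Sox4 window holds 4 CCAAT boxes, that of Sox12 1 and that of Sox30 2, and 33.8% of all 32851 windows of this length hold at least 1. The Sox6 window shown, 1 of 6 for that gene, is the only 1 of the 13 with a DMRT core, and it holds 2. The other 12 windows of these genes hold none. Of all windows 0.301% hold 2 or more and 6.47% hold at least 1. Those are shares of single windows, so they do not show how unusual a hit among 13 windows is. The SOX core AACAAT was in 1 Sox6 window and in 9.42% of all windows. These are matches of letters only.

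Age set most Sox genes apart more than genotype did at P3. In Dmrt1 +/- gonads all 10 were called between P28 and P3, where 54.7% of 21696 genes were called (35.7% higher, 18.9% lower). Sox30 (6.48), Sox5 (1.75) and Sox6 (1.41) were higher at P28 and the 7 others lower, from -1.02 for Sox9 to -2.69 for Sox11. Under somatic scaling, where the median of all genes was 1.85 and not 0.23, 4 were called (Sox30, Sox5 and Sox6 higher, Sox11 lower), and Sox9 turned to 0.58, Sox8 to 0.04 and Sox12 to 0.22. In Dmrt1 -/- gonads 6 were called, where 23% of all genes were (10.9% higher, 12.1% lower). Sox8 (-1.96), Sox9 (-1.90), Sox10 (-2.46), Sox11 (-3.64) and Sox6 (-2.15) were lower at P28 and Sox5 (1.55) higher. Sox4 (-0.41, adjusted p = 0.072), Sox12 (0.09) and Sox13 (-0.46) were not past the test, with Sox4 at 459, 513 and 557 CPM at P3 and 382, 427 and 339 at P28. In R111G/+ gonads 7 were called, where 41.1% of all genes were (27.4% higher, 13.7% lower), and Sox30 (4.14) was the 1 called higher.

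The effect of genotype itself differed between ages. The difference of Dmrt1 -/- from Dmrt1 +/- was larger at P28 than at P3 by 1.76 for Sox4 (SE 0.254, adjusted p = 2.6e-06), 1.46 for Sox12 and 1.59 for Sox13 under TMM, but by -0.54, -0.83 and -0.74 under somatic scaling. For Sox6 it was -3.56 and for Sox30 -7.37, called under every alternative run. These 5 of 10 stand against 40.9% of all genes. For R111G/+ against Dmrt1 +/- the same contrast was called for Sox30 (-2.34), Sox6 (-1.28) and Sox5 (-1.13), against 13.4% of all genes, and 1 of the 3, Sox30, under somatic scaling. Set against the P7 effect of deleted against control Sertoli cells, the P28 effect of Dmrt1 -/- against Dmrt1 +/- differed for 6 of 10 Sox genes, where 39.4% of all genes did. At P3 itself no Sox gene was called between R111G/- and Dmrt1 +/- (0.196% of all genes called) or between R111G/- and Dmrt1 -/- (0.177% called), with 0 and 1 of 10 at an unadjusted p below 0.05 and 0 called by DESeq2 in either.

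Sox genes outside the 10 moved in both directions in P28 gonads. Of 10 other family members, 5 were tested. In Dmrt1 -/- against wild-type gonads 2 of these were called higher and 2 lower, beside 26.1% and 40.5% of all genes. Sox18, an endothelial gene, had 77.3 to 104 CPM in Dmrt1 -/- and 4.10 to 4.69 in wild-type libraries (4.39, SE 0.324), beside summed endothelial markers of 527 to 586 and 48.3 to 67.3 CPM. In isolated P7 control Sertoli cells those markers summed to 13.9 to 17.0 CPM. Sox18 nevertheless had 81, 118 and 103 counts there, against 39, 29 and 33 in P28 wild-type libraries. The part of endothelial cells in the Sox18 difference was not tested. Sox3, which mouse spermatogonia use, had 3.13 to 7.64 CPM in wild-type and 0 to 0.116 in Dmrt1 -/- libraries.

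Over the 10 group means, Sox4 and Sox12 had the most alike log2 profiles among the 10 (Pearson r = 0.974), then Sox12 and Sox13 (0.957), and Sox12 and Sox30 the most opposed (-0.984). These points share libraries, ages and cell makeup, and the values are descriptions. Among 12342 genes compared, the protein-coding genes closest to Sox9 were Wasf1 (0.986), Clcn6 and Cltb. Closest to Sox8 were Wdr76 (0.990), Gdnf, the Sertoli growth factor of spermatogonial stem cells, and Fam155a. Closest to Sox4 were Kctd14 (0.997), Mmp23 and Wsb1, to Sox12 Slc27a3 (0.997), St3gal2 and Ttc9c, to Sox13 Patz1 (0.995), Kin and Kdm3b, and to Sox11 Npm1 (0.986), Rrm2 and Dnmt1. Sox30 went with Itgae, Lrrc43 and Slc6a16 (each 0.999), Sox5 with Sirt4 (0.975), Spred3 and Stap2, and Sox6 with Mbtd1 (0.964), Gnl2 and Dusp15. Sox10 had no close match (Nrde2, 0.873, then Plekhh1 and Ret, the GDNF receptor).

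Hi-C, which counts contacts between distant stretches of chromosome, was available here as a list of 4291 enriched interactions between 10 kb anchors. The list came from 2 replicates and had no score. It covers P7 Sertoli cells whose sample names say Dmrt1 -/- and whose genotype the authors give as Dmrt1 f/f with Dhh-Cre. Of the 10 Sox genes 6 had an anchor within the gene body or 10 kb of it, beside 26.9% of 21897 protein-coding genes. A longer gene has more room for an anchor under this rule, and the share was not matched for gene length. The Sox5 anchor, at 144500001 to 144510000 of chromosome 6, lies inside that long gene. Sox9 had 6 interactions, all sharing the anchor at 112770001 to 112780000 of chromosome 11, just upstream of the gene, with partners 390000 to 1240000 bases away. Of these, 5 partners lay on the upstream side and 1 downstream. Sox6 had 3 that shared an anchor at 116030001 to 116040000 of chromosome 7, which covers the start of its annotated gene, with partners 660000 to 1110000 bases away. Sox4 had 3, and Sox12, Sox5 and Sox13 had 1 each. No list of control cells was used here, so these positions carry no comparison.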

How the data were processed

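Libraries were stranded and read from both ends. Trimming by the authors used Trim Galore 0.6.0 with cutadapt 1.18, alignment to mouse build GRCm38 used STAR 2.7.2a, and reads were then counted per gene by strand. The deposited table gives these whole-number counts for 55401 genes in 30 libraries, with 0 columns left unmapped. Gene positions came from GENCODE M21, in which 99.5% of identifiers were found, whereas the authors used M25. From the counts, libraries of 1 age were fitted together in R 4.3.3 with edgeR 4.0.16 (filterByExpr, TMM scaling, quasi-likelihood F test, Benjamini-Hochberg adjustment over all genes tested), and all 30 libraries together for contrasts between ages. DESeq2 1.42.0 served as an alternative, and the others were other scalings, no filter, no fold limit, each library left out in turn, a replicate block, and only the 2 groups compared. Standard errors were calculated back from F. The recovery of known fold changes was tested on simulated data. With 3 libraries against 3 the smallest exact p is 0.1. The deposited Hi-C list, made by the authors with HiC-Pro 3.1.0, gives anchor positions. The ChIP-seq samples were not used here.

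The 10 members, the lists and the tests were chosen with earlier results of these data known. The genes named are the 10 members, Dmrt1, up to 4 genes of a list with the smallest adjusted p, and the 3 genes most like each member, with Fgfr2, Cyp26b1, Esr1 and the other Sox genes named where a result turned on them.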

Additional observations from a re-analysis of the deposited data

Results flagged for a closer look

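The effect of genotype differed between settings for several Sox genes, by a test of the difference itself in 1 edgeR fit of all 30 libraries (adjusted p below 0.05 and more than 2-fold). Between Dmrt1 -/- and Dmrt1 +/- gonads, the log2 effect at P28 minus that at P3 was 1.76 for Sox4, 1.46 for Sox12 and 1.59 for Sox13 with TMM scaling, each below 0 under scaling by somatic markers. For Sox6 it was -3.56 and for Sox30 -7.37. Between R111G/+ and Dmrt1 +/- gonads, the effect at P28 minus that at P3 was -1.13 for Sox5, -1.28 for Sox6 and -2.34 for Sox30, and under somatic scaling Sox30 alone was called.

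The P28 effect of Dmrt1 -/- against Dmrt1 +/- gonads also differed from the P7 effect of deleted against control Sertoli cells. The difference of effects was -1.83 for Sox5, -3.66 for Sox6 and -6.43 for Sox30, called under all 19 alternatives run. It was 1.68 for Sox4, 1.58 for Sox12 and 1.32 for Sox13, where somatic scaling left Sox4 at 0.41, Sox12 at 0.37 and Sox13 at -0.0013, none called. Age, tissue and the cells sampled all differ between the P28 and P7 groups and cannot be told apart.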

How the results depend on the processing

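Of 2767 Sox gene results under an alternative, 2436 kept direction and side of the threshold, 85 lost a call, 88 gained one and 158 turned sign. Of those 158, 20 were called before or after, all under the marker-based scalings, and 138 were called in neither, 50 under the marker-based scalings, 66 with a library left out and 22 under other settings. Both scalings shift the reference by construction. Beyond them the cause was not tested. Counts of Sox genes called became 8 for Dmrt1 -/- against wild-type (supporting, main 5), 4 (somatic) and 3 (supporting) for R111G/+ against wild-type (main 7), 4 for R111G/+ against Dmrt1 +/- (no fold limit, no filter and both marker scalings, main 2), 1 at P7 (no fold limit, no filter, DESeq2, main 0), 1 for P3 R111G/+ against Dmrt1 +/- (supporting, no filter, DESeq2, main 0), 0 for P3 R111G/+ against Dmrt1 -/- (somatic, block, main 1), 4 for P28 against P3 Dmrt1 +/- (both marker scalings, main 10) and 1 for the R111G/+ effect at P28 against P3 (library size alone, somatic, main 3). Leaving out 1 library gave 2 to 4 called for P28 R111G/+ against Dmrt1 +/-, 0 to 1 for P3 R111G/- against Dmrt1 -/-, P3 R111G/+ against Dmrt1 -/- and P3 R111G/+ against R111G/-, and 1 to 3 for the R111G/+ effect at P28 against P3. Same-numbered libraries were not treated as paired, since in no comparison of groups did all 3 pairs correlate over 0.1. Some pairs did, so shared handling of same-numbered libraries is not excluded. At P7 the pairs numbered 1 and 2 correlated at 0.50 and 0.22. In P28 R111G/+ against wild-type those numbered 1 and 3 correlated at 0.40 and 0.18. With the replicate number as a block 179 Sox gene results kept their call and direction, 6 turned sign, 4 lost the call (Sox10 each time, in P3 R111G/+ against Dmrt1 -/- and the 3 age comparisons) and 1 gained it (Sox9 in P28 against P3 R111G/+, -1.18), and the count for P3 R111G/+ against Dmrt1 -/- was 0. Depth limits Sox10 most, with 0 to 33 counts a library at P28.

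Under somatic scaling the turned values were in P28 Dmrt1 -/- against wild-type Sox8 -1.82 and Sox13 -0.079, in P28 Dmrt1 -/- against +/- Sox13 -0.15, in P28 Dmrt1 +/- against wild-type Sox8 -0.034, in P28 R111G/+ against wild-type Sox8 -0.40 and Sox4 -0.13, in P28 R111G/+ against +/- Sox9 -0.11, Sox8 -0.36, Sox4 -0.37 and Sox12 -0.14. They were also in P28 R111G/+ against -/- Sox13 0.35, in P7 cells Sox8 -0.60, Sox4 -0.32, Sox12 -0.90 and Sox13 -0.77, in P3 -/- against +/- Sox9 0.033, in P3 R111G/+ against +/- Sox9 -0.0039 and Sox12 -0.056, in P3 R111G/- against +/- Sox8 -0.12, Sox12 -0.16 and Sox5 -0.17. Further ones were in P3 R111G/- against -/- Sox11 -0.25 and Sox5 -0.11, in P3 R111G/+ against -/- Sox9 -0.037, Sox8 -0.17, Sox11 -0.27 and Sox12 -0.29, in P28 against P3 +/- Sox9 0.58, Sox8 0.045 and Sox12 0.22, in P28 against P3 -/- Sox12 -0.61, in P28 against P3 R111G/+ Sox9 0.38 and Sox12 0.032. Others were in the -/- effect at P28 against P3 Sox4 -0.54, Sox12 -0.83 and Sox13 -0.74, in the R111G/+ effect at P28 against P3 Sox9 -0.20, Sox4 -0.52, Sox12 -0.19 and Sox13 -0.065, in the P28 -/- effect against the P7 effect Sox10 -1.17 and Sox13 -0.0013. Under supporting cell scaling the turned values were in P28 Dmrt1 -/- against wild-type Sox8 -1.62, in P28 Dmrt1 -/- against +/- Sox13 -0.078, in P28 R111G/+ against +/- Sox8 -0.052, in P28 R111G/+ against -/- Sox12 0.056 and Sox13 0.64, in P7 cells Sox12 -0.32 and Sox13 -0.30. They were also in P3 -/- against +/- Sox8 -0.069 and Sox12 -0.093, in P3 R111G/+ against +/- Sox30 0.048, in P3 R111G/- against -/- Sox8 0.070, Sox4 0.011, Sox12 0.11 and Sox13 0.22, in P3 R111G/+ against -/- Sox4 0.23 and Sox5 0.11, in P3 R111G/+ against R111G/- Sox11 0.16. Further ones were in P28 against P3 +/- Sox9 0.33, in P28 against P3 -/- Sox12 -0.41, in the -/- effect at P28 against P3 Sox4 -0.027, Sox12 -0.31 and Sox13 -0.18, in the R111G/+ effect at P28 against P3 Sox9 -0.46, Sox4 -0.62, Sox12 -0.31 and Sox13 -0.10, in the P28 -/- effect against the P7 effect Sox10 -1.36 and Sox13 -0.13. With library size alone the turned values were in P28 Dmrt1 -/- against wild-type Sox9 0.048, in P28 R111G/+ against wild-type Sox10 0.33 and Sox11 0.21, in P7 cells Sox12 -0.032, in P28 against P3 -/- Sox12 -0.0076, in the R111G/+ effect at P28 against P3 Sox8 0.17. With no filter the turned values were in P28 R111G/+ against wild-type Sox10 0.14 and Sox11 0.030, in P7 cells Sox12 -0.0073, in P3 R111G/- against -/- Sox13 0.0013, in the R111G/+ effect at P28 against P3 Sox4 -0.012. With DESeq2 size factors the turned values were in the R111G/+ effect at P28 against P3 Sox4 -0.032, in the P28 -/- effect against the P7 effect Sox10 -0.15. With DESeq2 the turned values were in the R111G/+ effect at P28 against P3 Sox4 -0.032, in the P28 -/- effect against the P7 effect Sox10 -0.13. With only the 2 groups compared the turned values were in P28 R111G/+ against wild-type Sox10 0.082. With the replicate block the turned values were in P7 cells Sox12 -0.033 and Sox13 -0.046, in P3 R111G/- against -/- Sox13 0.014, in P3 R111G/+ against -/- Sox11 -0.0027, in P3 R111G/+ against R111G/- Sox4 -0.0059, in P28 against P3 -/- Sox12 -0.18. With 1 library left out the ranges that crossed 0 were in P28 Dmrt1 -/- against +/- Sox8 -0.41 to 0.030, in P28 R111G/+ against wild-type Sox10 -0.63 to 0.62 and Sox11 -0.48 to 0.082, in P28 R111G/+ against +/- Sox8 -0.016 to 0.56, in P7 cells Sox12 -0.30 to 0.19 and Sox13 -0.46 to 0.24, in P3 -/- against +/- Sox9 -0.37 to 0.11 and Sox10 -0.14 to 0.61. Others were in P3 R111G/+ against +/- Sox30 -0.55 to 0.055, in P3 R111G/- against +/- Sox8 -0.18 to 0.18, Sox12 -0.046 to 0.16, Sox5 -0.046 to 0.16 and Sox6 -0.26 to 0.088, in P3 R111G/- against -/- Sox8 -0.35 to 0.016, Sox11 -0.038 to 0.17 and Sox13 -0.14 to 0.21, in P3 R111G/+ against -/- Sox11 -0.14 to 0.11 and Sox12 -0.059 to 0.055, in P3 R111G/+ against R111G/- Sox4 -0.080 to 0.14, Sox11 -0.21 to 0.059 and Sox30 -0.15 to 0.57. They were also in P28 against P3 R111G/+ Sox6 -0.084 to 0.26, in the -/- effect at P28 against P3 Sox8 -0.39 to 0.033, Sox10 -2.12 to 0.0073 and Sox5 -0.18 to 0.16, in the R111G/+ effect at P28 against P3 Sox8 -0.25 to 0.26 and Sox4 -0.031 to 0.33, in the P28 -/- effect against the P7 effect Sox10 -1.36 to 0.77.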

Other observations

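An antisense transcript of the Sox5 locus, Sox5os3, had 25.03 to 28.7 CPM in P28 wild-type, 6.59 to 23.7 in Dmrt1 +/- and 0.383 to 2.08 in R111G/+ libraries, and no count in the 3 Dmrt1 -/- libraries, where Sox5 itself was at 45.3 to 52.1 CPM. It was at 0 to 0.173 CPM in the P3 and P7 libraries. It was chosen after its values had been seen, and the counting was specific for strand.

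The upper end of the Sox9 values in R111G/+ gonads rests on replicate 3 (112 CPM against 58.0 and 87.5), whereas the ratio of Sox9 to Sox8 in that library (1.91) lay between those of the other 2 (1.83 and 2.09).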
